A study of Homo sapiens with 12 samples.

Results

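Collagen genes were described in human liver spheroid co-cultures exposed to total parenteral nutrition (TPN). The members were all genes whose symbol consists of COL, a number, A and a number, which is the naming pattern of collagen α chains, and 40 of the 16705 genes of the table had such a symbol. By the architecture of their proteins, 11 encode chains of fibrillar collagens, 5 of basement membrane collagens, 9 of fibril-associated collagens, 3 of beaded filament (type VI) collagens, 3 of network collagens, 2 of multiplexins and 4 of transmembrane collagens. The remaining 3 were COL7A1, COL26A1 and COL28A1. A further 4 collagen genes of these families, COL4A4, COL22A1, COL6A5 and COL6A6, were not analysed here.

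Collagens are the main structural proteins of the extracellular matrix. Their α chains are modified on proline and lysine in the endoplasmic reticulum, wind into helical trimers, and are secreted, trimmed and crosslinked. Fibrillar collagens, such as types I and III, form the fibers of connective tissue and of the scar in liver fibrosis, type IV collagen forms the sheet of basement membranes, and fibril-associated collagens decorate fibrils without forming them. In the liver, activated hepatic stellate cells are known as the main source of fibrillar collagen.

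The spheroids consisted of C3A cells, a clone of the HepG2 hepatoma line that keeps hepatocyte functions, and LX-2 cells, an immortalized line derived from hepatic stellate cells. Per the study, far fewer LX-2 than C3A cells were seeded. They were left untreated or were exposed to 1% TPN, the intravenous nutrient solution given in place of food (glucose, lipid emulsion, amino acids, electrolytes, trace elements and vitamins), for 24 h or 144 h. Each of the 4 combinations of exposure and time had 3 libraries. Each library was made from many pooled spheroids, each line stands for 1 donor, and the replicates are independent experiments per the study, while the labels only number them. The p values measure the spread between these libraries.

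Expression was given as FPKM, fragments relative to the length of the transcript and to all mapped fragments, so that levels can be compared between genes. Steps in the low values of 34 short genes, pooled over the libraries, placed the depth near 1.86e+07 fragments per library, taken as equal in all. The limits of 1.81e+07 and 1.90e+07 are those of the fit over these genes, not of single libraries. At this depth 1 fragment was worth 0.00951 FPKM on COL1A1 and 0.00856 FPKM on COL4A1. Summed FPKM ran from 561657 to 583722 per library, and 10936 to 11074 genes reached 1 FPKM. The defining hepatocyte marker ALB was abundant, at a mean of 4530 FPKM. Of 16 stellate cell markers, 11 averaged 0.5 FPKM or more. Among these were S100A6 (75.6 FPKM), ACTA2 (49.6 FPKM), RELN (28.0 FPKM), VIM (8.10 FPKM) and PDGFRB (2.88 FPKM). The rest stayed below 0.5 FPKM, among them LRAT, PDGFRA and DES at means of 0.000833, 0.0208 and 0.0442 FPKM. In bulk RNA, fewer cells of one line and less RNA per cell of that line cannot be told apart, and this touches every collagen below.

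Only part of the family was measured with precision. A mean of at least 5 FPKM over the 12 libraries was reached by 7 collagens, which are called well measured here, and a mean between 0.5 and 5 FPKM by 10, called moderately measured. These 17 were tested. The other 23 stayed below 0.5 FPKM, the highest being COL11A2 at 0.25 FPKM, and 20 of them did not exceed 0.1 FPKM. The lowest tested collagen was COL1A2 at 0.698 FPKM. Well measured members were 2 of the 11 fibrillar genes (COL27A1 and COL1A1), all 3 fibril-associated genes that were tested (COL9A3, COL9A2 and COL16A1), the multiplexin COL18A1 and COL7A1. Neither of the basement membrane genes tested, COL4A1 and COL4A2, and none of the 3 type VI genes was well measured. No network and no transmembrane collagen was tested.

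**Figure D1:**
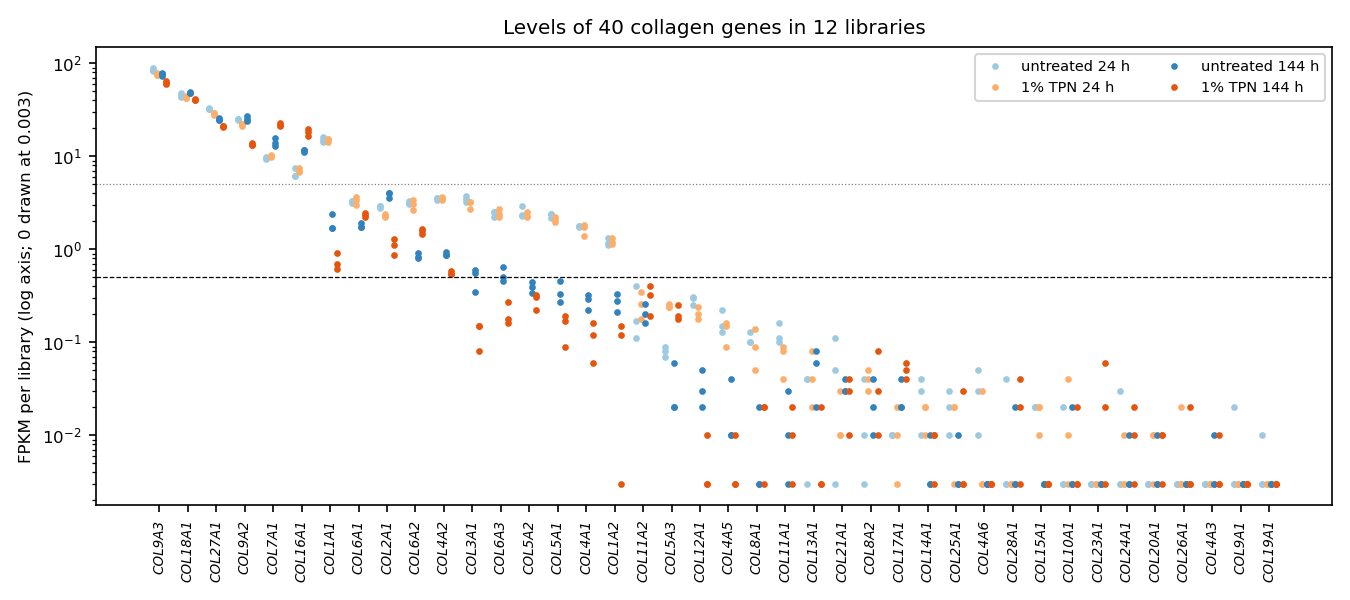
FPKM of the 40 collagen genes (log axis) in each of the 12 libraries, ordered by mean FPKM, with 4 colors for the groups and values listed at 0 drawn at 0.003. The dashed line marks 0.5 FPKM and the dotted line 5 FPKM; 7 genes average above the dotted line, and several genes from COL1A1 rightward have 144 h libraries far below their 24 h libraries.

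Types I and III, the main collagens of fibrous tissue, were not the highest here. By mean FPKM, COL9A3 led with 74.9, followed by COL18A1 with 44.2, COL27A1 with 26.8, COL9A2 with 21.5, COL7A1 with 14.0, COL16A1 with 10.8 and COL1A1 with 8.21. The moderately measured genes ran from COL6A1 at 2.68 FPKM through COL2A1 (2.53), COL6A2 (2.16), COL4A2 (2.12), COL3A1 (1.79), COL6A3 (1.41), COL5A2 (1.38), COL5A1 (1.23) and COL4A1 (0.949) to COL1A2. COL9A2 and COL9A3 encode chains of type IX collagen, which coats type II collagen fibrils in cartilage, and their usual partner chain gene COL9A1 was listed at 0.02 FPKM or less in every library. Tested collagens are long genes of many exons: their median exon number was 51 against 9 for all genes tested, with a range from 28 in COL6A2 to 119 in COL7A1. The median transcript length was 5490 against 3228 bases, and the median GC content 61.8% against 49%.

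The summed FPKM of all 40 collagens was 248 ± 7.57 (SD, n = 3) in untreated spheroids at 24 h and 228 ± 6 after 24 h of TPN. At 144 h it was 212 ± 5.51 in untreated and 185 ± 3.00 in TPN-exposed spheroids. Fibril-associated collagens were the largest part of this sum in every group, with means from 46.3% to 53.1%. Fibrillar collagens held 24.4% ± 0.31 and 24.3% ± 0.38 at 24 h (untreated and TPN), and 15.4% ± 0.82 and 13% ± 0.47 at 144 h. The share of basement membrane collagens was 2.21% and 2.32% at 24 h and 0.561% and 0.364% at 144 h. The group of COL7A1, COL26A1 and COL28A1, carried almost entirely by COL7A1, went the other way, from 3.86% and 4.44% at 24 h to 6.71% in untreated and 11.9% in TPN-exposed spheroids at 144 h. These shares are descriptions, and a share can move because other members of the sum move.

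**Figure D2:**
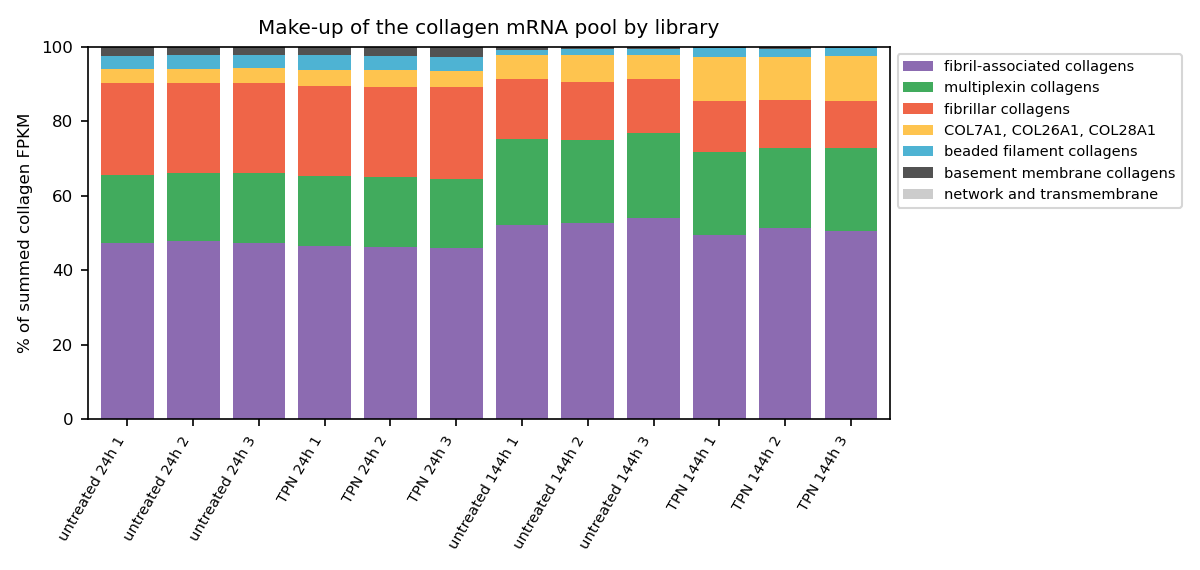
Share of the summed collagen FPKM (percent, vertical axis) taken by each collagen subgroup in each of the 12 libraries, 1 bar per library. At 144 h the fibrillar share is at most 16.1% against at least 24.0% at 24 h, and the share of COL7A1, COL26A1 and COL28A1 is at least 11.7% in the TPN 144 h libraries.

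The main question of the design was how spheroids differed after TPN exposure. After 144 h, 16 of the 17 collagens tested differed between TPN-exposed and untreated spheroids at an adjusted p below 0.05, 12 of them lower and 4 higher. Over all 11713 genes tested, 52.5% passed the same test, 28.3% lower and 24.2% higher. With the added criterion of an absolute log2 fold change above 0.58, which defines a differentially expressed gene (DEG) here, 12 collagens remained, 9 lower (COL1A1, COL1A2, COL2A1, COL3A1, COL5A1, COL4A1, COL4A2, COL6A3 and COL9A2) and 3 higher (COL6A2, COL7A1 and COL16A1). The share of DEGs over all genes was 9.48%, with 3.73% lower and 5.75% higher. The median log2 fold change was -0.59 over the 17 collagens and -0.018 over all genes tested. For all 17 collagens the TPN-exposed and untreated values did not overlap, which held for 57.3% of all genes. The count of DEGs depends on how low values are treated: with a pseudocount of 1 in place of 0.1 it was 5, and among the 7 well measured collagens alone it was 4. COL1A1 is among these 4, although it averaged only 1.92 (untreated) and 0.747 FPKM (TPN) at 144 h. It counts as well measured through its 24 h libraries (15.1 and 15.0 FPKM).

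**Figure D3:**
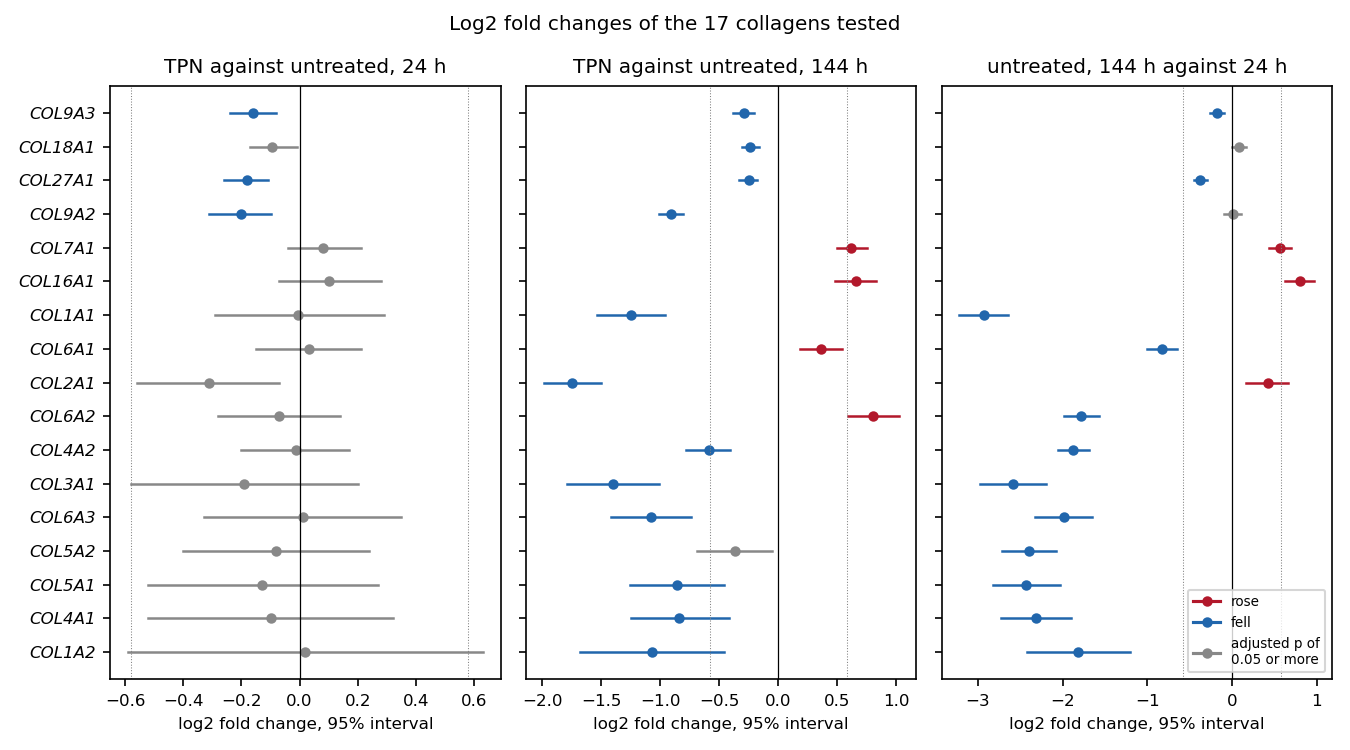
Log2 fold change (horizontal axis, with its 95% interval) of each of the 17 collagens tested, ordered by mean FPKM from top to bottom, for TPN against untreated at 24 h (left) and 144 h (middle) and for untreated 144 h against untreated 24 h (right). Red marks genes that rose, blue genes that fell and gray genes with an adjusted p of 0.05 or more; dotted lines mark 0.58, and the horizontal scale differs between panels. At 24 h 3 members are blue, at 144 h 12 are blue and 4 red.

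Of the 7 fibrillar collagens tested, 6 fell after 144 h of TPN and none rose, against 28.3% lower and 24.2% higher over all genes tested. The fibrillar chain COL5A3, at a mean of 0.142 FPKM, was not among the 7. In the fit without a filter on low values it rose, with a log2 fold change of 1.21 (adjusted p = 2.86e-05). COL1A1 (chr17:50184096-50201649, GRCh38.p13), which encodes the more abundant chain of type I collagen, was at 2.38, 1.68 and 1.69 FPKM in untreated and at 0.92, 0.62 and 0.70 FPKM in TPN-exposed spheroids. The groups did not overlap, and the log2 fold change was -1.25 (SE 0.14, adjusted p = 4.22e-06). Its partner chain COL1A2 was far lower, at 0.33, 0.28 and 0.21 FPKM in untreated spheroids, and at 0.15 and 0.12 FPKM in 2 TPN-exposed libraries and listed at 0 in the third. The log2 fold change of COL1A2 was -1.07 (SE 0.28, adjusted p = 0.00591), and it rests on few fragments. COL3A1, the chain of type III collagen that accompanies type I in reticular fibers, had 0.60, 0.35 and 0.56 FPKM in untreated against 0.15, 0.15 and 0.08 FPKM in TPN-exposed spheroids, a log2 fold change of -1.40 (SE 0.18, adjusted p = 2.17e-05).

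COL2A1, the chain of cartilage type II collagen, had the largest log2 fold change of the 17 collagens at the pseudocount of 0.1 FPKM. It was at 4.07, 4.01 and 3.53 FPKM in untreated and at 1.30, 0.87 and 1.11 FPKM in TPN-exposed spheroids at 144 h, a log2 fold change of -1.75 (SE 0.11, adjusted p = 3.49e-08), or 3.36-fold lower on the log2(FPKM + 0.1) scale. With a pseudocount of 0.01, COL1A2 (-2.23) and COL3A1 (-1.92) had larger log2 fold changes than COL2A1 (-1.83). Type V collagen nucleates type I fibrils. Its chain COL5A1 fell from 0.33, 0.46 and 0.27 FPKM to 0.19, 0.17 and 0.09 FPKM, with a log2 fold change of -0.86 (SE 0.18). The other chain, COL5A2, was at 0.39, 0.34 and 0.45 FPKM against 0.31, 0.32 and 0.22 FPKM, and its log2 fold change of -0.37 did not pass, with an adjusted p of 0.0516 and a 95% interval from -0.69 to -0.05. COL27A1, a well measured fibrillar chain known from cartilage, fell by less, from 24.66, 26.12 and 24.29 FPKM to 20.86, 20.94 and 21.17 FPKM, a log2 fold change of -0.25 (SE 0.034).

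A limit applies to the lowest of these genes. COL5A1, COL5A2, COL1A2 and COL4A1 had both of their 144 h group means below 0.5 FPKM, and COL3A1 and COL6A3 had 1 of them, so these 6 entered the test through their 24 h libraries. The pseudocount of 0.1 FPKM makes their log2 fold changes smaller than the ratio of the FPKM values.

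**Figure D4:**
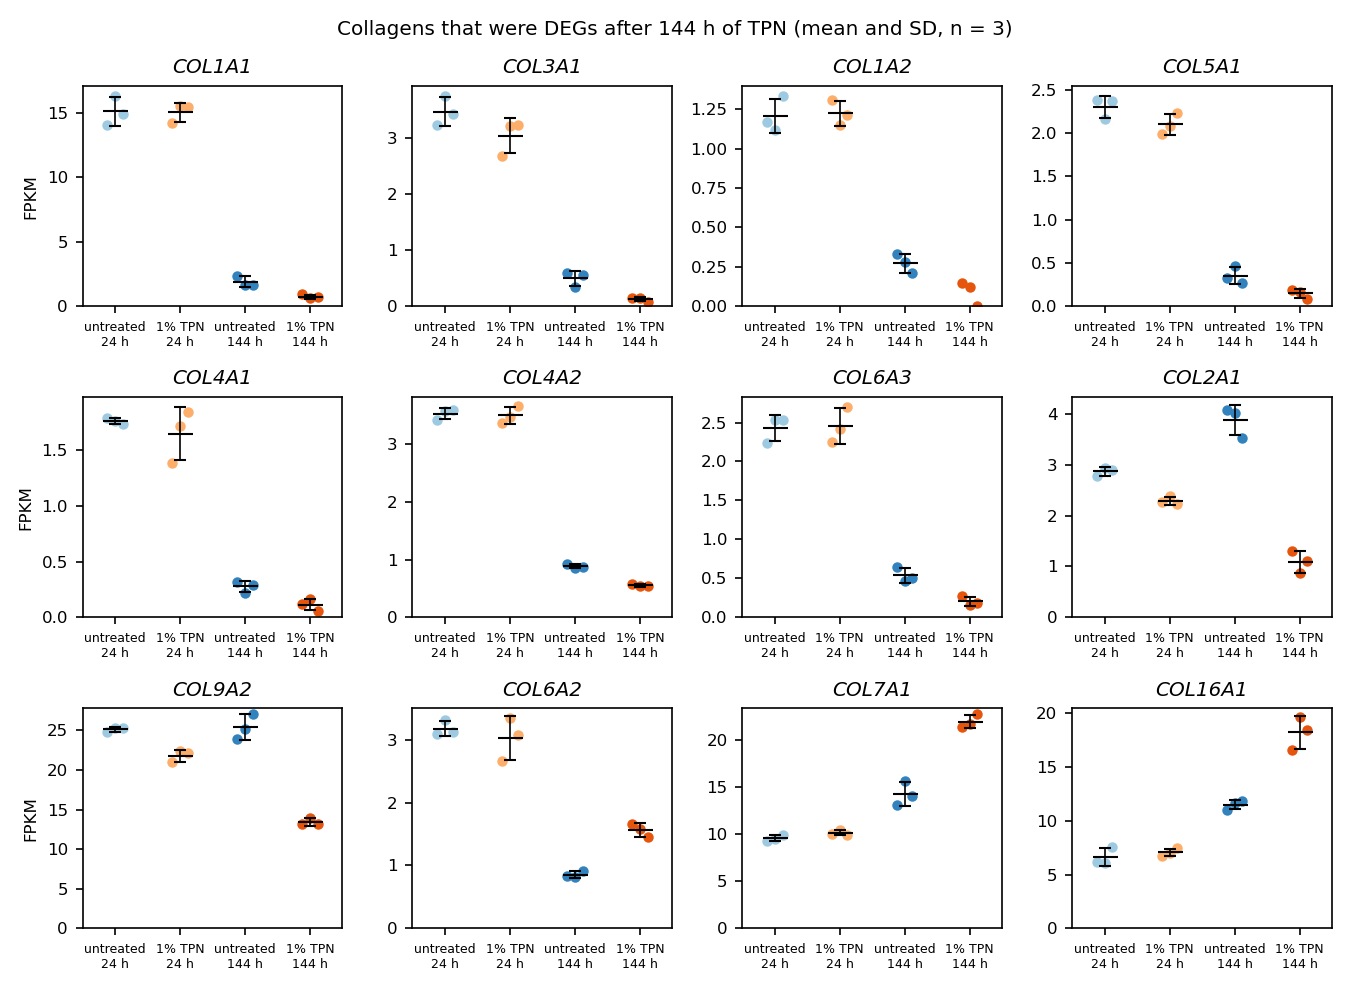
FPKM (vertical axes from 0, linear) of the 12 collagens that were DEGs after 144 h of TPN, 1 point per library, with the mean and SD of each group (n = 3); no mean is drawn for COL1A2 in the TPN 144 h group, where 1 library is listed at 0. COL6A2, COL7A1 and COL16A1 lie higher in TPN-exposed than in untreated spheroids at 144 h, and the other 9 lie lower.

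Both basement membrane chains tested fell. COL4A1 and COL4A2 encode the chains of the ubiquitous form of type IV collagen and are a known head-to-head gene pair. COL4A1 was at 0.32, 0.22 and 0.29 FPKM in untreated and at 0.12, 0.16 and 0.06 FPKM in TPN-exposed spheroids, a log2 fold change of -0.84 (SE 0.19, adjusted p = 0.00239). COL4A2 fell from 0.93, 0.86 and 0.87 FPKM to 0.58, 0.54 and 0.54 FPKM, a log2 fold change of -0.59 (SE 0.086, adjusted p = 5.81e-05), close to the DEG threshold. In the table both lie on chromosome 13 (COL4A1 at chr13:110137490-110307157 and COL4A2 at chr13:110307267-110515246, GRCh38.p13), and 109 bases separate them. The sequence between their start sites in RefSeq, chr13:110307158-110307283 on GRCh38.p14, is shown because both chains fell and their start sites face away from each other across it. It is read on the plus strand, toward COL4A2, and capitals mark CCAAT and GGGCGG motifs on either strand.

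COL4A1 and COL4A2: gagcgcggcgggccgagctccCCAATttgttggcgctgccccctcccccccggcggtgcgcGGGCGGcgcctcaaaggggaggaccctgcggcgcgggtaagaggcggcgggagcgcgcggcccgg

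The type VI collagens, which form beaded filaments around cells, split by chain. COL6A2 rose from 0.83, 0.81 and 0.92 FPKM to 1.66, 1.58 and 1.45 FPKM, a log2 fold change of 0.80 (SE 0.099, adjusted p = 1.48e-05). COL6A1 rose from 1.73, 1.92 and 1.73 FPKM to 2.45, 2.23 and 2.33 FPKM, a log2 fold change of 0.36 (SE 0.083, adjusted p = 0.00233), short of the DEG threshold. COL6A3, the long chain without which the usual type VI trimer does not assemble, fell from 0.65, 0.46 and 0.51 FPKM to 0.27, 0.16 and 0.18 FPKM, with a log2 fold change of -1.08 (SE 0.16, adjusted p = 6.55e-05). COL6A1 and COL6A2 lie next to each other on chromosome 21, with 93022 bases between them in the table, and COL6A3 lies on chromosome 2.

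The fibril-associated collagens also went both ways. COL9A2 fell from 23.91, 25.15 and 27.12 FPKM to 13.18, 13.99 and 13.13 FPKM, which is 1.88-fold lower, with a log2 fold change of -0.91 (SE 0.047, adjusted p = 3.40e-09). COL9A3, the partner chain and the most abundant collagen, fell by less, from 72.68, 76.62 and 77.90 FPKM to 60.19, 61.29 and 63.99 FPKM, a log2 fold change of -0.29 (SE 0.039). COL16A1, a minor chain that links fibrils to other matrix proteins and to integrins, rose from 11.00, 11.61 and 11.81 FPKM to 16.57, 19.68 and 18.41 FPKM. Its log2 fold change was 0.66 (SE 0.081, adjusted p = 1.41e-05), or 1.58-fold.

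Among the other members, COL7A1 rose and COL18A1 fell. COL7A1 encodes type VII collagen, which forms the anchoring fibrils that tie a basement membrane to the underlying stroma. It was at 13.03, 15.58 and 14.07 FPKM in untreated and at 21.39, 21.62 and 22.69 FPKM in TPN-exposed spheroids at 144 h, a log2 fold change of 0.62 (SE 0.057, adjusted p = 9.46e-07). COL18A1, the proteoglycan collagen from which endostatin is released and which hepatocytes are known to express, was at 47.33, 47.79 and 48.97 FPKM against 40.69, 40.08 and 41.55 FPKM. Its log2 fold change of -0.24 (SE 0.037, adjusted p = 1.14e-04) came with groups that did not overlap.

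COL7A1 and COL16A1 were the well measured collagens that rose, and the 150 bases before their start sites are shown for that reason, from RefSeq on GRCh38.p14, each on the gene's own strand (minus for both). Capitals mark TATAAA and GGGCGG on either strand. The COL7A1 stretch is chr3:48595330-48595479 and the COL16A1 stretch chr1:31704018-31704167. By the coordinates that came with the expression values (GRCh38.p13), COL16A1 extends to chr1:31704162. Nearly all of its stretch thus lies inside the gene as listed there, and before the start site only in RefSeq.

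COL7A1: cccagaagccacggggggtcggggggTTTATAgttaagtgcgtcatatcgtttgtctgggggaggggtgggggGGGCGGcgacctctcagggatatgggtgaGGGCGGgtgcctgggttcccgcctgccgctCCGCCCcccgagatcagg

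COL16A1: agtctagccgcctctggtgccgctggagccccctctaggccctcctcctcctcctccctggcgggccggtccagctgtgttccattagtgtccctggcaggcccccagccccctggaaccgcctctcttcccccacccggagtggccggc

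A promoter window of 300 bases, 250 before and 50 after the start site in RefSeq, was matched for 10 of the 17 collagens tested. COL1A1, COL1A2, COL2A1, COL3A1, COL5A2, COL6A1 and COL9A3 were not matched. The GC box GGGCGG occurred on either strand in 9 of the 10 windows (not in COL6A3), against 44.6% of 27305 promoters. The CCAAT box occurred in 2, which are the overlapping windows of COL4A1 and COL4A2, against 35.7%. TATAAA occurred in the windows of COL6A2 and COL7A1, against 12% of all promoters, and CAGACA, a SMAD-type element, in those of COL7A1 and COL16A1, against 16.8%. The AP-1 element TGANTCA was in none of the 10 windows and in 7.76% of all promoters. The median GC content was 73.8% in the 10 windows and 58.3% over all promoters. Members that rose and members that fell both held GGGCGG, and the matches are descriptions of letters, not of bound sites.

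After 24 h of TPN the collagens had moved little. The adjusted p was below 0.05 for 3 of 17, all lower (COL9A3, COL27A1 and COL9A2), against 10.5% of all genes tested, 5.46% lower and 5.04% higher. None was a DEG, against 0.914% of all genes. COL27A1 was at 32.55, 31.94 and 33.05 FPKM in untreated and at 28.07, 28.90 and 28.99 FPKM in TPN-exposed spheroids, a log2 fold change of -0.18 (SE 0.034, adjusted p = 0.00372). COL9A2 had 24.79, 25.31 and 25.36 against 20.95, 22.37 and 22.14 FPKM, and a log2 fold change of -0.20 (adjusted p = 0.0126). COL9A3 had 81.87, 89.40 and 85.59 against 75.52, 78.87 and 75.24 FPKM, and a log2 fold change of -0.16 (adjusted p = 0.0173). The count of 3 fell to 1 when TPN 24 h replicate 1 was left out.

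For type I collagen the 24 h groups overlapped. COL1A1 was at 14.09, 16.29 and 14.94 FPKM in untreated and at 14.21, 15.51 and 15.43 FPKM in TPN-exposed spheroids, and the 95% interval of its log2 fold change ran from -0.29 to 0.29 (adjusted p = 0.989). COL1A2 (1.17, 1.12 and 1.33 against 1.31, 1.15 and 1.21 FPKM) had an interval from -0.59 to 0.63, wide enough to hold a change of DEG size. COL3A1 was at 3.24, 3.75 and 3.44 against 2.69, 3.22 and 3.23 FPKM, and its interval ran from -0.58 to 0.20. COL2A1 was at 2.77, 2.94 and 2.90 against 2.26, 2.38 and 2.23 FPKM, groups that did not overlap, and its log2 fold change of -0.31 had an adjusted p of 0.107.

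The other chains that were DEGs at 144 h, and their partner chains, are given for both groups at 24 h. COL5A1 was at 2.38, 2.16 and 2.37 FPKM in untreated and at 1.99, 2.08 and 2.23 FPKM in TPN-exposed spheroids, and COL5A2 at 2.27, 2.90 and 2.33 against 2.29, 2.51 and 2.24 FPKM. COL4A1 was at 1.79, 1.76 and 1.73 against 1.38, 1.72 and 1.84 FPKM, and COL4A2 at 3.42, 3.57 and 3.59 against 3.36, 3.47 and 3.66 FPKM. All 4 overlapped between the groups. For type VI, COL6A1 had 3.29, 3.33 and 3.15 against 3.65, 3.36 and 3.02 FPKM, COL6A2 had 3.09, 3.31 and 3.12 against 2.66, 3.35 and 3.08 FPKM, and COL6A3 had 2.24, 2.53 and 2.53 against 2.25, 2.42 and 2.70 FPKM, again with overlap. COL16A1 (6.15, 6.09 and 7.55 against 6.77, 6.97 and 7.44 FPKM) overlapped as well, whereas COL7A1 (9.30, 9.49 and 9.89 against 10.00, 10.44 and 9.93 FPKM) was higher in each TPN-exposed library, with a log2 fold change of 0.082 that did not pass (adjusted p = 0.43). Nonoverlapping groups were seen for 6 of 17 collagens at 24 h, against 29.9% of all genes.

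Whether the TPN effect differed between the exposure times was tested by subtracting the log2 fold change of 24 h from that of 144 h. This difference passed for 11 of 17 collagens, 7 toward lower and 4 toward higher values at 144 h, against 30.4% of all genes tested (16.3% lower and 14.1% higher). It exceeded 0.58 in size for 8, with 7 lower and 1 higher, against 5.87% of all genes, 1.66% lower and 4.20% higher. At the pseudocount of 0.1 the largest was that of COL2A1 (-1.43, SE 0.16, adjusted p = 3.00e-05), followed by COL1A1 (-1.25, SE 0.19, adjusted p = 3.12e-04), COL3A1 (-1.22, SE 0.26) and COL6A3 (-1.09, SE 0.22). At a pseudocount of 0.01, COL3A1 (-1.73) and COL1A2 (-2.26, adjusted p = 0.125) exceeded COL2A1 (-1.51). COL6A2 differed in the other direction, by 0.87 (SE 0.14, adjusted p = 4.50e-04), and COL7A1 and COL16A1 by 0.54 and 0.56. For COL9A3, COL18A1 and COL27A1 the difference did not pass, with intervals from -0.25 to -0.01, from -0.25 to -0.03 and from -0.17 to 0.03. The difference of COL5A1 (-0.73, adjusted p = 0.0477) and that of COL6A1 (0.33, adjusted p = 0.0483) lay just inside the threshold and lost the call in 14 and 16 of 21 alternative settings. COL1A2 and COL4A1, at adjusted p values of 0.0543 and 0.0559, lay just outside it. With a pseudocount of 1, 3 differences of DEG size remained.

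Most collagens fell with time in culture. In untreated spheroids 15 of 17 differed between 144 h and 24 h, 12 lower and 3 higher, against 72.6% of all genes tested, 52.4% lower and 20.1% higher. With median-ratio scaling the split was 11 lower and 5 higher, against 34.2% lower and 32.7% higher over all genes, and with quantile normalization it was again 11 and 5, against 37.9% and 29.1%. Under the reported scaling DEGs were 11, with 10 lower and 1 higher, against 19.0% of all genes, 12.2% lower and 6.80% higher. The median log2 fold change was -1.8 over the collagens and -0.18 over all genes, a shift that median-ratio scaling brought to -0.012 and quantile normalization to -0.049. COL1A1 fell from 14.09, 16.29 and 14.94 FPKM to 2.38, 1.68 and 1.69 FPKM, 7.62-fold lower, with a log2 fold change of -2.93 (SE 0.14, adjusted p = 3.81e-10).

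Every other tested chain of types I, III, IV, V and VI fell in the untreated spheroids as well. The log2 fold changes were -2.59 for COL3A1, -2.43 for COL5A1, -2.40 for COL5A2, -2.31 for COL4A1, -1.99 for COL6A3, -1.88 for COL4A2, -1.82 for COL1A2, -1.78 for COL6A2 and -0.83 for COL6A1. None of these chains overlapped between the untreated groups, and over the family the 2 groups were apart for 15 of 17 collagens, against 74.9% of all genes. COL27A1 fell by 0.38 and COL9A3 by 0.18 on the log2 scale, and the value of COL9A3 became -0.0029 (adjusted p = 0.954) with median-ratio scaling and 0.013 under quantile normalization. COL1A2, COL4A1, COL5A1 and COL5A2 averaged below 0.5 FPKM in untreated spheroids at 144 h and were tested only because of their 24 h libraries, so a fall with time is part of how they entered the test. Among the 7 well measured collagens 3 fell and 2 rose, against 52.4% lower and 20.1% higher over all genes tested. COL1A1, among those that fell, reached a mean of 5 FPKM only through its 24 h libraries. It averaged 15.1 (untreated) and 15.0 FPKM (TPN) at 24 h, and 1.92 and 0.747 FPKM at 144 h.

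Higher values or no call with time were found for COL16A1, COL7A1, COL2A1, COL18A1 and COL9A2. COL16A1 rose from 6.15, 6.09 and 7.55 FPKM to 11.00, 11.61 and 11.81 FPKM, a log2 fold change of 0.80 (SE 0.081, adjusted p = 9.21e-07). COL7A1 rose from 9.30, 9.49 and 9.89 FPKM to 13.03, 15.58 and 14.07 FPKM, a log2 fold change of 0.57. COL2A1 rose by 0.42 (adjusted p = 0.00492), unlike the other moderately measured chains. COL18A1 (43.24, 45.94 and 47.41 against 47.33, 47.79 and 48.97 FPKM) and COL9A2 (24.79, 25.31 and 25.36 against 23.91, 25.15 and 27.12 FPKM) did not pass, with intervals of the log2 fold change from 0.00 to 0.16 and from -0.09 to 0.11. These 2 depend on the scaling: both passed as higher with median-ratio scaling (COL18A1 0.25, adjusted p = 3.96e-05, and COL9A2 0.18, adjusted p = 0.0037) and with quantile normalization (0.24 and 0.16).

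The comparisons with time and with TPN at 144 h share the untreated 144 h libraries, so their values are set side by side without a test. COL16A1 and COL7A1 were higher in both, and COL1A1, COL1A2, COL3A1, COL5A1, COL4A1, COL4A2, COL6A3, COL27A1 and COL9A3 were lower in both. COL6A1 and COL6A2 fell with time and were higher with TPN, and COL2A1 rose with time and was lower with TPN.

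Chains of the same trimer were also compared within each library. COL1A1 and COL1A2 form type I collagen, and COL1A1 exceeded COL1A2 by a factor of 12.6 ± 1.7 (SD, n = 3) in untreated and 12.4 ± 1.4 in TPN-exposed spheroids at 24 h. In the untreated 144 h group this factor was 7.09 ± 1.0. After 144 h of TPN the ratio was 6.13 and 5.17 in 2 libraries and could not be formed in the third, where COL1A1 was at 0.70 FPKM and COL1A2 was listed at 0. The ratio of the group means was 8.3 with TPN and 7.01 without, so the direction at 144 h depends on that library. The ratio of COL4A1 to COL4A2 was 0.499 ± 0.021 and 0.470 ± 0.051 at 24 h and 0.311 ± 0.048 and 0.205 ± 0.093 at 144 h (untreated and TPN), where the libraries of both groups overlapped. COL5A1 to COL5A2 stood at 0.937, 0.898 and 0.933 in the first 3 of these groups and at 0.518 ± 0.10 after 144 h of TPN, where the highest library (0.613) overlapped with the lowest untreated one (0.60). COL6A1 to COL6A2 was 1.03 ± 0.033 and 1.12 ± 0.22 at 24 h, 2.11 ± 0.25 in the untreated 144 h group and 1.5 ± 0.10 after 144 h of TPN. At 144 h the ratios of this last pair did not overlap, with 2.08, 2.37 and 1.88 against 1.48, 1.41 and 1.61. RSEM divides ambiguous fragments between genes, and the ratios rest on the transcript lengths of its reference.

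The genes that act on collagen went both ways at 144 h, when 52.5% of all genes tested passed, 24.2% higher and 28.3% lower. Of 18 tested genes of collagen modification and folding, 8 rose and 5 fell after 144 h of TPN (median log2 fold change 0.036). The largest changes were those of COLGALT2, which adds galactose to hydroxylysine (2.22 FPKM in untreated and 4.77 FPKM in TPN-exposed spheroids, log2 fold change 1.07, adjusted p = 1.07e-08), of CREB3L1, a transcription factor of collagen genes near the lower limit of detection (0.13 and 0.05 FPKM, log2 fold change -0.61), and of P4HA2, a prolyl hydroxylase subunit (41 and 52.1 FPKM, log2 fold change 0.35). CREB3L1 entered the test through its 24 h libraries (0.91 FPKM in untreated and 1.14 FPKM in TPN-exposed spheroids). Of 14 genes of export, processing and crosslinking, 4 rose and 5 fell. FURIN, a proprotein convertase, fell (18.2 and 11.0 FPKM, log2 fold change -0.72), and it was also lower at 24 h, by a log2 fold change of -0.64. LOXL2, a crosslinking oxidase, rose by 0.56, and PXDN, which crosslinks type IV collagen, had a log2 fold change of -0.45 at only 0.17 and 0.0967 FPKM, having entered the test through its 24 h libraries (1.75 and 1.73 FPKM).

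Of 7 collagen receptors tested, 5 rose and 2 fell at 144 h, against the same 24.2% and 28.3% of all genes, which also stand behind the counts that follow. ITGA1 and ITGA2, the collagen-binding integrin α chains, rose from 5.94 to 11.7 FPKM (log2 fold change 0.96, adjusted p = 2.56e-09) and from 30.1 to 55.9 FPKM (log2 fold change 0.89, adjusted p = 3.96e-09), and ADGRG1, an adhesion receptor for type III collagen, rose by 0.49. Of 9 genes of collagen breakdown and its inhibitors, 4 rose and 2 fell. TIMP1, an inhibitor of matrix metalloproteinases, rose from 43.8 to 91.4 FPKM (log2 fold change 1.06, adjusted p = 5.12e-10), TIMP2 by 0.81, and CTSL, a lysosomal protease, by 0.97. Neither list had a gene that passed in the lower direction with a log2 fold change beyond 0.58, which held for only 3.73% of all genes tested. Of 8 basement membrane partners, 3 rose and 3 fell, and the laminin chains LAMB1 (0.44), LAMA3 (0.43) and LAMB2 (-0.35) changed most. Of 7 fibril partners, 4 rose and 1 fell. That gene was THBS2, a matricellular protein (0.763 and 0.25 FPKM, log2 fold change -1.33). FN1, fibronectin, rose from 1460 to 2030 FPKM (0.48), and ELN, elastin, rose at a low level, from 0.463 to 0.773 FPKM (0.61).

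**Figure D5:**
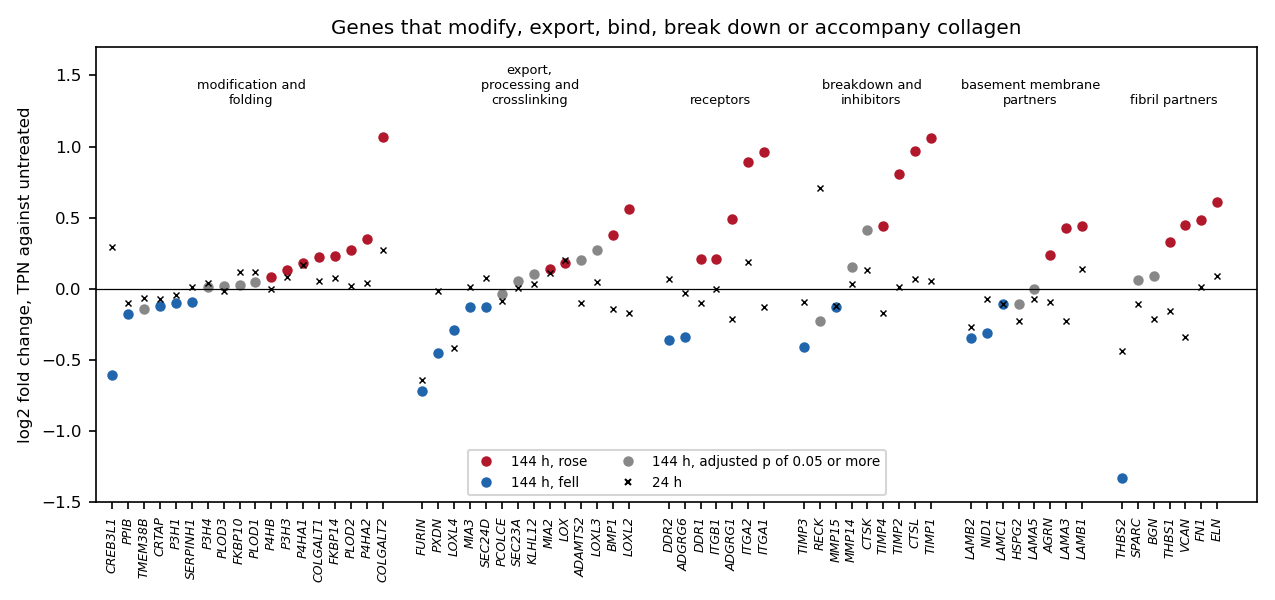
Log2 fold change of TPN-exposed against untreated spheroids (vertical axis) for the tested genes of the 6 lists of collagen partners, as filled circles at 144 h (red rose, blue fell, gray adjusted p of 0.05 or more) and crosses at 24 h. COLGALT2, ITGA1, ITGA2, TIMP1 and CTSL lie highest at 144 h, and THBS2, FURIN and CREB3L1 lowest.

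In untreated spheroids the partners went both ways with time, when 20.1% of all genes were higher and 52.4% lower. Genes of modification and folding were 6 higher and 9 lower, receptors 3 higher and 1 lower, and fibril partners 1 higher and 6 lower, with a median of -1.0 in the latter. After 24 h of TPN, when 10.5% of all genes passed, none of the 9 breakdown genes and none of the 7 fibril partners passed, and of the 18 modification genes 3 rose and 1 fell. Of the 14 genes of export, processing and crosslinking 1 rose and 2 fell, of the 7 receptors 1 rose and 1 fell, and of the 8 basement membrane partners 1 rose and 2 fell.

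Markers of both lines were read beside the collagens. Of 11 stellate cell markers tested, 8 fell and 2 rose between untreated 24 h and untreated 144 h, against 52.4% lower and 20.1% higher over all genes. CAV1 (log2 fold change -3.06), VIM (-2.67), THY1 (-2.66) and TAGLN (-2.11) fell most and ACTA2 fell by 0.27, whereas AXL (1.33) and TPM2 (1.01) rose and PDGFRB was at -0.0075. CAV1, THY1 and TAGLN, at 0.373, 0.0833 and 0.427 FPKM in untreated spheroids at 144 h, entered the test through their 24 h libraries. The summed FPKM of all 16 stellate cell markers was 206 to 222 in untreated and 192 to 213 in TPN-exposed libraries at 24 h. At 144 h it was 148 to 154 and 219 to 240. After 144 h of TPN, 4 of the 11 rose and 3 fell: S100A6 rose by 1.41, from 44.5 to 119 FPKM, which carries the higher sum, and AXL by 0.50, whereas VIM fell by 1.07 on the log2 scale. The part of these markers in the collagen results was not tested.

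Of 14 hepatocyte markers tested, 11 fell and 1 rose after 144 h of TPN (28.3% and 24.2% of all genes), with ALB at -0.65, TF at -0.59 and AFP at -0.69, and their summed FPKM was 19900 to 21400 in untreated and 15200 to 16400 in TPN-exposed libraries. With time in untreated spheroids, 6 rose and 5 fell (20.1% and 52.4% of all genes). None of the endothelial markers was tested, and their sum stayed between 0.18 and 0.53 FPKM. Of 3 macrophage markers tested, CD68 and LYZ rose at 144 h (0.41 and 0.27) and CD14 (-0.084) did not pass. PTPRC, MARCO and CSF1R of the same list stayed at means of 0.0117, 0.0075 and 0.0167 FPKM. The spheroids were seeded only with C3A and LX-2 cells. Of 5 cholangiocyte markers tested, SPP1 rose by 1.79, KRT19 fell by 0.52 on the log2 scale and 3 did not pass. Their part in the collagen results was not tested either.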

How the data were processed

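RNA was sequenced in 12 libraries, 3 in each of 4 groups, by the DNBSEQ technology. The authors filtered reads with SOAPnuke, aligned them to GRCh38.p13 with HISAT2 (version 2.0.4), mapped them to reference transcripts with Bowtie2 (version 2.2.5) and calculated expression with RSEM. The values used are the FPKM values deposited by the authors, given to 2 decimals. Since these are not read counts, limma (version 3.58.1, R 4.3.3) was applied to log2(FPKM + 0.1) in place of the count model of the study.

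Of 16705 genes, the 11713 that averaged 0.5 FPKM or more were fitted together in 1 model of the 4 groups (lmFit, contrasts.fit, eBayes with an intensity trend), with Benjamini-Hochberg adjustment over all genes tested. "Rose" and "fell" stand for an adjusted p below 0.05, and DEGs, as in the study, also had an absolute log2 fold change above 0.58. Every tested collagen was named. Values in every library were given for DEGs and for chains of 1 trimer, and of each other list the 3 genes with the largest change at 144 h among those that passed were named. The collagens and all gene lists were chosen with earlier results of these data known. Depth was estimated from steps in the FPKM of short genes, a whole multiple being allowed to deviate by 0.15. Alternatives were a pseudocount of 1 or 0.01, no filter or one at 5 FPKM, 3 other scalings, a fit of the compared libraries only, no intensity trend, a replicate block, and the omission of each library. Removal of a length and GC trend was added after seeing the data. Tables and figures used Python 3.11.15.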

Additional observations from a re-analysis of the deposited data

Results flagged for a closer look

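For 8 of the 17 collagens tested, the TPN effect was not the same at both exposure times, by the test of the difference itself and by more than 0.58 in size. With the 24 h log2 fold change subtracted from the 144 h value, the difference was -1.43 for COL2A1, -1.25 for COL1A1, -1.22 for COL3A1, -1.09 for COL6A3, -0.73 for COL5A1, -0.71 for COL9A2 and -0.58 for COL4A2. For COL6A2 it was 0.87, in the other direction. Over all genes tested, 5.87% had a difference of this size that passed. The value of COL4A2 lay at the threshold of size. That of COL5A1 (adjusted p = 0.0477) lost the call in 14 alternative settings and kept it in 7. COL3A1, COL6A3 and COL5A1 entered the test through their 24 h libraries. No group had the 4 or more libraries that a search for outlying libraries would need.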

How the results depend on the processing

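Most values kept their direction and their side of the threshold. Of the log2 fold changes recomputed under the alternatives, 1417 were the same in both respects, 38 lost the call, 37 gained it and 15 changed sign, all 15 where the reported value was 0.18 or less in size. With a pseudocount of 1, collagen DEGs numbered 5 at 144 h (12 in the report) and 3 for the difference (8), because the larger pseudocount shrinks the changes of low genes. With a mean of at least 5 FPKM, which leaves 7 collagens in the fit, 7 passed and 4 were DEGs at 144 h, 5 and 2 for the difference, and 5 and 2 for untreated spheroids over time. COL1A1 stayed in this fit only through its 24 h libraries. Without a filter, 1 of 40 collagens was a DEG at 24 h (0 of 17 in the report) and 23 of 40 passed over time (15 of 17). Over all 16668 genes of that fit, 40.5% were lower and 15.0% higher over time. Leaving out each library in turn gave 1 to 4 collagens that passed at 24 h (1 without TPN 24 h replicate 1), 16 to 17 at 144 h, 9 to 12 for the difference and 15 to 16 over time. DEGs then numbered 0 at 24 h in each fit, 10 to 12 at 144 h, 6 to 10 for the difference and 11 to 12 over time.

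The values that changed sign did so mostly when 1 library was left out. Over these fits the log2 fold change at 24 h ran from -0.053 to 0.051 for COL1A1, from -0.028 to 0.087 for COL1A2, from -0.18 to 0.015 for COL4A1, from -0.045 to 0.015 for COL4A2, from -0.14 to 0.026 for COL5A2, from -0.030 to 0.10 for COL6A1, from -0.14 to 0.018 for COL6A2 and from -0.056 to 0.071 for COL6A3. Over time, COL9A2 ran from -0.036 to 0.054 and became -0.0037 when libraries were scaled to the same FPKM sum, and COL9A3 became 0.013 under quantile normalization. The cause of these changes of sign was not tested.

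Replicate numbers were not taken to pair the libraries, since the labels tie them to no shared batch. The deviations of same-numbered libraries from their group means correlated at -0.083 to 0.151 (median 0.046, 18 pairs of libraries, 5 of them above 0.1). Those of other numbers correlated at -0.241 to 0.114 (median -0.016, 36 pairs). With the replicate block, 3 collagens passed at 24 h, 16 at 144 h, 12 for the difference and 15 over time, and DEGs numbered 0, 12, 8 and 11. Of the 12 libraries, 7 correlated best with their own number. For the difference, the block gave calls to COL9A3 (adjusted p = 0.0481), COL18A1 (0.0478) and COL1A2 (0.0481) and took them from COL6A1 (0.0527) and COL5A1 (0.0524), and it changed no other call of a collagen. The alternative with only the libraries compared gives no value for the difference. Depth limits values below 0.5 FPKM, among them those of COL1A2 at 144 h, where 1 fragment was worth 0.0112 FPKM.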

Other observations

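The 23 collagens below a mean of 0.5 FPKM entered a test only when the filter on low values was dropped, and their values rest on few fragments. COL5A3, a minor chain of type V collagen, was at 0.08, 0.07 and 0.09 FPKM in untreated and at 0.26, 0.24 and 0.24 FPKM in TPN-exposed spheroids at 24 h, and at 0.02, 0.06 and 0.02 against 0.25, 0.19 and 0.18 FPKM at 144 h. The groups did not overlap at either time point. In the fit without the filter its log2 fold change was 0.95 (adjusted p = 0.00153) at 24 h and 1.21 (adjusted p = 2.86e-05) at 144 h, whereas COL5A1 fell at 144 h and COL5A2 did not pass. COL12A1, a fibril-associated chain, fell by 0.36 at 144 h (adjusted p = 0.0363).

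In untreated spheroids over time, 8 of these 23 passed without the filter, all lower, against 40.5% lower and 15.0% higher among all 16668 genes of that fit. The largest were COL12A1 (-1.54), the basement membrane chain COL4A5 (-1.15), the fibrillar chain COL11A1 (-0.98) and the network chain COL8A1 (-0.98). The highest of the 23, COL11A2, ranged from 0.11 to 0.40 FPKM over the 12 libraries and passed in none of the comparisons. At such levels no statement on presence or absence of a chain is possible from these files.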
